A study of Mus musculus with 8 samples.

Results

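Microglia-like nuclei of the ventricular-subventricular zone (V-SVZ) were examined by single nuclei RNA sequencing at postnatal day 90 in 8 mice, 4 of them Tsc2 wt/wt and 4 of them Tsc2 mut/mut, with 1 library per mouse. A barcode was taken as a microglia-like nucleus when it held at least 4 unique molecular identifiers (UMIs) summed over Inpp5d, Csf1r, Cx3cr1, P2ry12 and Apbb1ip, and fewer than 5 UMIs summed over the astrocyte genes Gpc5, Luzp2 and Rgs20. This rule was applied to barcodes with at least 300 detected genes and under 30% of UMIs from the mitochondrial genome, referred to below as kept barcodes. It found 631 microglia-like nuclei among 4475 kept barcodes, which is 14.1%. The kept barcodes were themselves 11.8% of the 37881 barcodes with at least 300 genes. A further 40 kept barcodes held enough microglial UMIs but were left out for their astrocyte UMIs.

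Both groups carried a Rosa26 CAG-tdTomato reporter, which lights up cells after Cre recombination, and from each mouse 100k tdTomato-positive nuclei were sorted with doublets gated out. In Tsc2 mut/mut mice both copies of Tsc2 were the conditional Tsc2tm1.1Mjg allele, whereas Tsc2 wt/wt mice carried wild-type Tsc2. The study delivered Cre either by electroporation of a CAG-CRE plasmid into newborns or by a Nestin-CRE-ERT2 transgene with tamoxifen, and the sources used here do not state which route these mice had. Tissue of both groups was digested with warm trypsin before lysis. Sex, litter and a pairing of mice are not given, and each p-value below measures the spread between these mice.

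Microglia are the resident macrophages of the brain parenchyma. They arise from yolk sac progenitors and not from the neural stem cells of the V-SVZ, and they are maintained by signalling through the receptor Csf1r and, for their homeostatic state, by TGF-beta. In the V-SVZ they are known for clearing dying neuroblasts and for releasing factors that act on neural stem cells. Tsc2 encodes tuberin, which with hamartin restrains mTORC1, the kinase complex that drives translation, ribosome production and growth.

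The number of microglia-like nuclei differed widely between mice. The 4 Tsc2 wt/wt mice gave 31, 124, 17 and 67 nuclei, and the 4 Tsc2 mut/mut mice gave 144, 56, 182 and 10, in replicate order throughout. Tsc2 mut/mut replicate 4 stood apart, with only 10 microglia-like and 8 astrocyte-gated barcodes among 272 kept, and with 234950 UMIs per 1000000 (CPM) of choroid plexus genes in its other kept barcodes against 11889 to 106940 CPM in the other 7 mice. Summed over its members, a mouse contributed between 18227 and 304457 UMIs, so that a gene without any UMI may still lie at up to 9.85 CPM in the deepest and 165 CPM in the shallowest mouse (3 counts of the total). Members of different libraries shared no barcode sequence, and among all kept barcodes 2 sequences occurred in more than 1 library.

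The promoters of 3 genes of the microglial profile are shown because they hold the letters GAGGAAGT, a core that the myeloid factor PU.1 (encoded by Spi1) is known to bind. They were the first 3 such genes among the rule genes and then the 25 leading profile genes, in order of rank. The sequences are RefSeq promoters on GRCm38.p6, from 250 bases before to 50 bases after the transcription start, written 5′ to 3′ in the direction of the gene. Capitals mark the match, which reads ACTTCCTC where the letters lie on the opposite strand. Inpp5d, which encodes the phosphatase SHIP1 of myeloid cells, lies on the plus strand at chr1:87620062-87620361, Apbb1ip, which encodes the adaptor RIAM of integrin activation, on the plus strand at chr2:22774077-22774376, and C1qc, a chain of complement C1q, on the minus strand at chr4:136892865-136893164.
Inpp5d: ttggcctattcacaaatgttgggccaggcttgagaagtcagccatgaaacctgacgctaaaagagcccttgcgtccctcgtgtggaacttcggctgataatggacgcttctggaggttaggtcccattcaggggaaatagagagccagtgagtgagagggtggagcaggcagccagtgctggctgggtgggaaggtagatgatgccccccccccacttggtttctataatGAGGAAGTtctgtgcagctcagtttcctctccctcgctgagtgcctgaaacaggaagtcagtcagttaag
Apbb1ip: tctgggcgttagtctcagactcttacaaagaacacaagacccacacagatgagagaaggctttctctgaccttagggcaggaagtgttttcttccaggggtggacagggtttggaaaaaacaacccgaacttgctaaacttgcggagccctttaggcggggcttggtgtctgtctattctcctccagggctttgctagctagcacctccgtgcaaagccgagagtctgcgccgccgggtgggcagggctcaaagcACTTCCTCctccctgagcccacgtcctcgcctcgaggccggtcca
C1qc: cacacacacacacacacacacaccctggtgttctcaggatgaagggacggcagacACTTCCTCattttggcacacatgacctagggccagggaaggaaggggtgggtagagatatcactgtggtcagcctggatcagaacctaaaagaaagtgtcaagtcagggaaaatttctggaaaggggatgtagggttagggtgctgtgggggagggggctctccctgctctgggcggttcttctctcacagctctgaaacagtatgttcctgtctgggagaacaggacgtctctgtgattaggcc
The match began 20 bases before the start in Inpp5d, 5 bases after it in Apbb1ip and 195 bases before it in C1qc. Over both strands, GAGGAAGT was found in the promoters of 997 of 27025 genes in the table (3.69%). Of the 25 leading genes 16 had a promoter in the table and 1 of these held it (6.25%), and of the 5 microglial rule genes 4 had one and 2 held it. The shorter letters GAGGAA, which lie inside GAGGAAGT, were found for 8446 genes (31.3%), for 9 of the 16 leading genes (56.2%) and for 2 of the 4 rule genes. With so few promoters these shares are a description, and a match is not a binding site.

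The profile of the microglia-like nuclei was that of homeostatic microglia, with genes of surface receptors, complement and myeloid transcription factors leading. Since the members were chosen on their own counts, this profile is a description and was not tested. The genes of the rule were high by construction. Inpp5d averaged 2005 ± 397 CPM (SD, n = 8 mice) in microglia-like nuclei against 18.5 CPM in the other kept barcodes, Csf1r 1168 ± 268 against 10.6 CPM, Cx3cr1, the fractalkine receptor, 1464 ± 534 against 15.8 CPM, Apbb1ip 1276 ± 363 against 15.8 CPM and P2ry12, the ADP receptor that guides microglial processes, 969 ± 364 against 12.7 CPM. Of the astrocyte genes of the rule, Gpc5 was at 30.7 CPM in members and 4450 CPM in the others. Of 3626 genes with at least 50 CPM on average in the members, 1049 (28.9%) were at least 2-fold higher than in the other kept barcodes. The fold is the ratio of mean CPM over the 8 mice, with 1 CPM added to both. Each gene counted was also higher in every mouse, by any margin. At least 8-fold higher by the same measure were 358 (9.87%). The median fold over the 3626 genes was 1.63.

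Outside the rule genes, the 25 highest folds ran from 75.1 to 111. Gpr34, a lysophosphatidylserine receptor of microglia, ranged from 284 to 913 CPM over the 8 mice, with a median of 394 CPM, and its highest value in the other barcodes of any mouse was 9.36 CPM. Ikzf1, the zinc finger factor Ikaros of blood cell lineages, ranged from 981 to 1806 CPM (median 1182), and Runx1, a factor needed for microglial development, from 879 to 1282 CPM (median 1061). C1qa, which encodes another chain of C1q, ranged from 384 to 1788 CPM (median 671). For each of these genes the lowest mouse of the microglia-like nuclei lay far above the highest mouse of the other barcodes. Immune genes among the others were C1qc, Selplg (the selectin ligand PSGL-1), Cd180, Ptprc (CD45), Csf3r (the G-CSF receptor), Cd84, Itgam (CD11b), Fcrls, Nckap1l, Adap2, Wdfy4, Epsti1 and Rgs1. Another 5 were non-coding, namely Gm10790, 8030442B05Rik, Mir142hg, Gm35154 and Gm5086. Gm10790, of no assigned function, lies on chromosome 13 from 41865915 to 41913092 (GRCm38) and had the highest fold of the 25, with 684 ± 233 CPM in microglia-like nuclei against 5.19 CPM in the other kept barcodes.

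**Figure D1:**
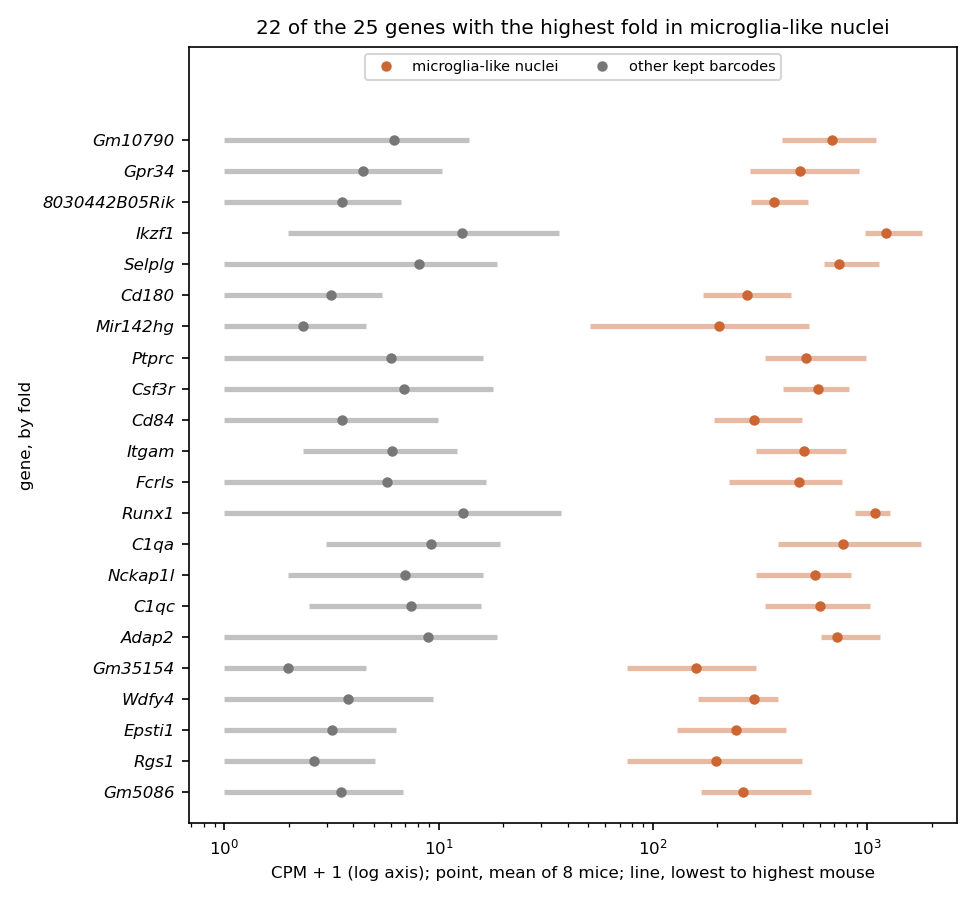
Mean CPM of 22 of the 25 leading genes in microglia-like nuclei and in the other kept barcodes, on a log axis of CPM + 1. Points are means of 8 mice and lines run from the lowest to the highest mouse. Gpr34 spans 284 to 913 CPM in microglia-like nuclei and reaches at most 9.36 CPM in the others.

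Background was small for these genes. Gpr34 had at least 1 UMI in 38.7% of microglia-like nuclei (median 1559 UMIs per nucleus) and in 0.230% of the 1304 astrocyte-gated barcodes, although these were deeper (median 3436 UMIs). Siglech, a sialic acid binding receptor of microglia, had a UMI in 64.0% of members and 0.844% of astrocyte-gated barcodes. Tmem119, a surface marker of microglia in the brain, had one in 30.6% and 0.153%. For all of these genes the share in microglia-like nuclei lay well above that in astrocyte-gated barcodes, which is read here as background.

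The label was checked against 17 microglial markers that the rule did not use, among them Tmem119, Siglech, Sall1, Trem2 and Spi1, with barcodes just inside and just outside the threshold. The 57 barcodes at exactly 4 microglial UMIs had 6569 CPM over these markers, and all of them held at least 1 marker UMI. The 46 barcodes at 3 UMIs, which the rule left out, had 4483 CPM, and 93.5% held one. At 2 UMIs 48 barcodes had 1645 CPM and 64.6% held one, while the 314 members with 10 or more UMIs had 9506 CPM. The barcodes just below the threshold therefore carried marker transcripts too, and the rule left out some barcodes of the same kind. The median number of rule UMIs per nucleus was 10, 11, 14 and 14 in Tsc2 wt/wt and 8, 8.5, 8 and 7.5 in Tsc2 mut/mut mice, so that the threshold cut nearer to the bulk of the nuclei in Tsc2 mut/mut.

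Gene lists sorted the profile by role. The list of homeostatic microglia had 20 genes, 3 of them genes of the rule. Of the other 17 genes 14 were at least 2-fold higher in the mean and higher in all 8 mice (median fold 60.1). Siglech ranged from 585 to 1103 CPM (median 855), Trem2, a lipid-sensing receptor of phagocytes, from 151 to 352 CPM (median 230), and Sall1, a transcription factor of microglial identity, from 247 to 549 CPM (median 293). Of 20 myeloid transcription factors 16 were at least 2-fold higher (median fold 15.9), with Spi1 between 146 and 274 CPM. Of 24 genes of immune signalling and the cytoskeleton 2 were genes of the rule, and 18 of the other 22 were (median fold 43.6), and of 12 complement and Fc receptor genes 8 were (median fold 48.1). Every gene named here was detected in all 8 mice. In the TGF-beta list 9 of the 13 genes found in the files were higher, with a median fold of 4.68, led by the receptor Tgfbr1 at 2812 ± 394 CPM.

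The list of disease-associated microglia was mixed. Of its 23 genes found in the files 12 were over 50 CPM. At least 2-fold higher in the mean and higher in every mouse were 7, with a median fold of 1.58 over all 23. For all genes over 50 CPM, a set without such low genes, the median was 1.63. Its most abundant gene, Fth1, the ferritin heavy chain of many cell types, was at 2466 CPM against 3188 CPM in the other kept barcodes. Cst7, Spp1 and Gpnmb had no UMI in any of the 631 nuclei, and Itgax, the integrin CD11c, was at 3.09 CPM. Apoe, a lipid carrier of astrocytes that activated microglia also make, averaged 884 ± 397 CPM, below the 2111 CPM of the other kept barcodes. Among 20 inflammatory genes Il6, Cxcl10 and Nos2 were at 0, and 3 were at least 2-fold higher (median fold 6.58). For the 19 interferon response genes found in the files this number was 3 (median fold 1.34), and for the 15 antigen presentation genes 4 (median fold 3.50). The last list was led by the costimulatory receptor Cd86 at 332 CPM, with Cd74, the invariant chain, at 8.93 CPM. In the list of lysosome and phagocytosis genes 11 of 20 were higher (median fold 4.00), including the protease Ctsd at 937 ± 292 CPM.

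Transcripts of other cell types were also present in the sums. By the same measure no gene was at least 2-fold higher among 15 astrocyte or NSC genes (median fold 0.139, 0.163 without 3 rule genes). The same held for 12 oligodendrocyte genes (0.168), 8 oligodendrocyte progenitor genes (0.138), 18 neuron genes (0.580) and 10 ependymal genes (0.105). It also held for 9 choroid plexus genes (0.0107), 12 endothelial, mural or fibroblast genes (0.651) and 20 genes of other leukocytes (1.04). In the leukocyte list 8 genes were at 0, among them Cd3e of T cells, Cd79a of B cells and S100a8 and S100a9 of neutrophils. The astrocyte list summed to 903, 3805, 1445 and 3777 CPM in the microglia-like nuclei of Tsc2 wt/wt and to 6149, 5174, 7794 and 8010 CPM in those of Tsc2 mut/mut mice, and the groups did not overlap. Its most abundant gene there was the glutamate transporter Slc1a3 (3037 CPM). Barcodes with few genes (at least 100 and fewer than 200) had between 7086 and 8988 CPM of the astrocyte list in every mouse. The neuron list summed to between 1723 and 4693 CPM in the members of a mouse and to between 2871 and 4855 CPM in its barcodes with few genes. Other than by fits that left out members with such transcripts, the part of RNA from other cells in the genotype differences given below was not tested.

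Border-associated macrophages of the meninges, perivascular spaces and choroid plexus express some genes of the rule, such as Csf1r, and their markers were found in a minority of nuclei. Of the 14 genes of this list only Stab1, a scavenger receptor, was at least 2-fold higher in the mean and higher in every mouse. It was at 261 ± 98.4 CPM. Mrc1, the mannose receptor CD206, had a UMI in 4.12% of microglia-like nuclei and 0.230% of astrocyte-gated barcodes, F13a1, a coagulation factor subunit of macrophages, in 1.58% and 0.153%, and Clec4n was at 0. Their levels were uneven. Mrc1 was at 585 CPM in Tsc2 wt/wt replicate 1 and 512 CPM in Tsc2 mut/mut replicate 2, and from 0 to 151 CPM in the other 6 mice. At least 2 UMIs of the list were found in 115 nuclei (18.2%), most often of Stab1, which microglia-like nuclei of every mouse expressed.

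Within the 631 nuclei, 5 sub-groups were found by clustering with gene values centred in each mouse. They are described by their leading genes, without a test, since the same counts defined them. The largest held 242 nuclei (38.4%), was led by F13a1, Mrc1, Fgf13, Dab2 and Cd163, and contained 59 of the 115 nuclei with border macrophage transcripts. F13a1 had a UMI in only 10 and Mrc1 in only 26 of all members, and P2ry12 was at 960 CPM in this sub-group, against 908 CPM in the next one of 185 nuclei, which had no leading gene above 2.40-fold. A sub-group of 112 nuclei was led by Nrxn3 and by the vascular genes Flt1, Slco1a4 and Ptprb. Its vascular transcripts lay in few nuclei, since Flt1 had a UMI in only 0.951% of all members.

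A sub-group of 81 nuclei was led by the mitotic genes Cenpf, Mki67 and Cenpe. These led on 19, 17 and 11 UMIs over all 81 nuclei, and the nuclei were shallower (median 1081 UMIs) and richer in mitochondrial UMIs (median 17.2%) than the members as a whole (1559 UMIs and 12.8%). The smallest, of 11 nuclei (1.74%), was led by the oligodendrocyte genes St18, Slc24a2 and Nkain2 at a median of 3123 UMIs per nucleus, and whether these were doublets was not tested. All sub-groups but this one were found in every mouse, and the sub-group of 242 nuclei made up from 35.5% to 50% of the members of a mouse.

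The first genotype comparison asked whether Tsc2 mut/mut mice had more or fewer microglia-like nuclei among kept barcodes. Shares were 9.66%, 16.6%, 6.44% and 17.4% in Tsc2 wt/wt and 16.6%, 13.9%, 15.0% and 3.68% in Tsc2 mut/mut mice. Both groups reached from low to high values and overlapped almost completely. The means were 12.5% ± 5.35 and 12.3% ± 5.84 (SD, n = 4 each), and the difference of -0.257 percentage points had p = 0.943 in an exact two-sided permutation test over the 70 assignments of mice, the smallest p being 0.0286. The 95% Wilson interval of a single mouse, which covers counting error only, ran from 4.06% to 10.1% for the lowest Tsc2 wt/wt mouse and from 2.01% to 6.63% for Tsc2 mut/mut replicate 4. Without that mouse the difference was 2.61 percentage points (exact p = 0.571). The nuclei were selected by tdTomato, so the share is of sorted nuclei and not of the tissue. Whether the microglia-like nuclei carried the reporter or recombined alleles, or were carried over in the sort, cannot be told apart from these counts, and the genotype is that of the mouse.

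Depth of the microglia-like nuclei did not differ beyond the spread between mice, and their mitochondrial share had a higher mean in Tsc2 mut/mut with a difference that did not pass. Median UMIs per nucleus averaged 1463 ± 306 for Tsc2 wt/wt against 1538 ± 81.5 for Tsc2 mut/mut mice (exact permutation p = 0.714), and median genes 912 ± 150 and 911 ± 34.4 (exact permutation p = 0.971). Mitochondrial UMIs made up 6.07%, 11.7%, 6.06% and 7.07% in Tsc2 wt/wt and 12.7%, 11.9%, 15.3% and 11.3% in Tsc2 mut/mut mice. Only Tsc2 wt/wt replicate 2 reached the values of the Tsc2 mut/mut group. The difference of 5.07 percentage points had an exact permutation p of 0.0571, and of 0.286 when adjusted over the 5 tests of shares and depth, and so did not pass (5.57 percentage points without Tsc2 mut/mut replicate 4). Mitochondrial shares of the other kept barcodes were 7.65% ± 0.956 and 9.38% ± 0.713 (SD, n = 4, exact permutation p = 0.0571). Nuclei with border macrophage transcripts made up 19.5% ± 6.18 of the members of Tsc2 wt/wt mice and 16% ± 5.52 of those of Tsc2 mut/mut mice (exact permutation p = 0.429).

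**Figure D2:**
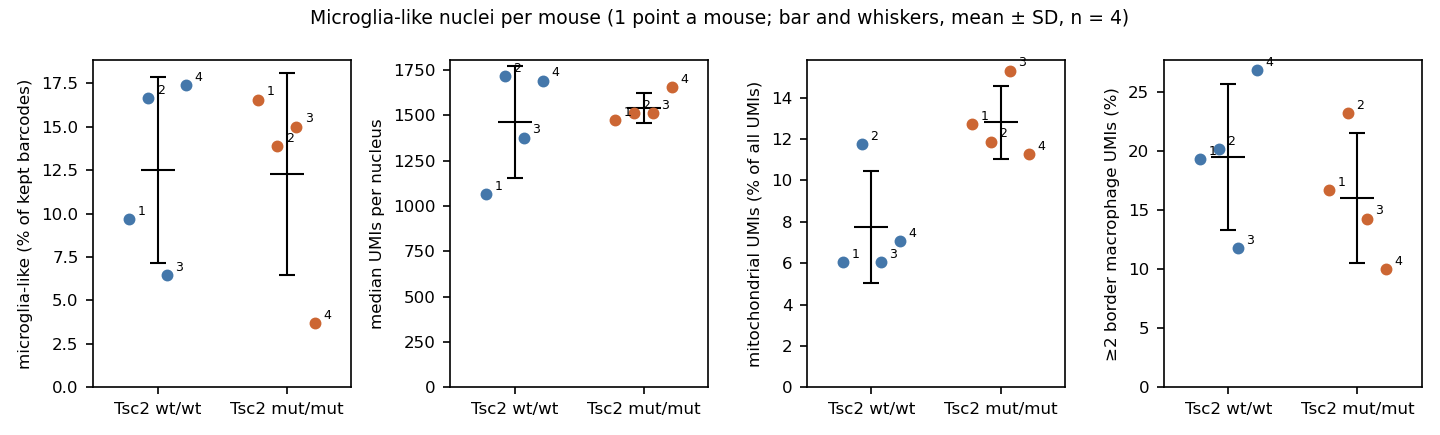
Share of microglia-like nuclei among kept barcodes, median UMIs per nucleus, mitochondrial percent and percent of members with at least 2 border macrophage UMIs, 1 point per mouse with its replicate number, and the mean with SD (n = 4) beside each group. Shares of microglia-like nuclei overlap, at 6.44% to 17.4% in Tsc2 wt/wt and 3.68% to 16.6% in Tsc2 mut/mut. In the mitochondrial panel only Tsc2 wt/wt replicate 2 (11.7%) lies among the Tsc2 mut/mut mice.

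The second comparison asked which genes differed between genotypes inside the microglia-like nuclei. The members of each mouse were added up and their UMIs compared by the quasi-likelihood test of edgeR with Benjamini-Hochberg adjustment over the 2285 genes with enough counts. Exactly 1 gene (0.0438%) passed at an adjusted p of 0.05, Klf4, and 227 genes (9.93%) had an unadjusted p under 0.05, 93 of them lower (4.07%) and 134 higher (5.86%) in Tsc2 mut/mut. The median log2 fold change of all tested genes was -0.02. As measured by groups that did not overlap, 61 genes were lower (2.67%) and 44 higher (1.93%).

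Klf4 encodes a zinc finger factor that macrophages induce rapidly on stimulation and that endothelial cells also express. The gene (ENSMUSG00000003032) lies on the minus strand of chromosome 4 from 55527143 to 55532466 in GRCm38. It was at 418, 297, 152 and 165 CPM in Tsc2 wt/wt and at 37.5, 32.0, 52.6 and 0 CPM in Tsc2 mut/mut mice, from 25, 77, 4 and 24 against 9, 3, 16 and 0 UMIs. All 4 Tsc2 wt/wt values lay above all 4 Tsc2 mut/mut values, although the 0 of Tsc2 mut/mut replicate 4, with 18227 UMIs in all, allows up to 165 CPM. The means were 258 ± 125 and 30.5 ± 22.1 CPM (SD, n = 4), and Klf4 fell by 2.58 on the log2 scale (SE 0.40, edgeR adjusted p = 0.00442). This was -2.53 when Tsc2 mut/mut replicate 4 was left out (edgeR adjusted p = 0.0181). In the other kept barcodes Klf4 was at 33.9, 32.5, 42.7 and 14.5 CPM in Tsc2 wt/wt and at 29.0, 65.2, 14.0 and 12.8 CPM in Tsc2 mut/mut mice, so the groups overlapped there (log2 fold change 0.07, SE 0.49, edgeR adjusted p = 0.984). The difference between both compartments, tested as an interaction, was -2.46 (SE 0.57, edgeR adjusted p = 0.0696) and did not pass.

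Part of the Klf4 count in Tsc2 wt/wt lay in nuclei with vascular transcripts. At least 3 UMIs of the endothelial, mural or fibroblast list were found in 4 microglia-like nuclei, 1 of Tsc2 wt/wt replicate 1 and 3 of replicate 2, and these held 10 of the 25 and 36 of the 77 Klf4 UMIs of their mice. The list summed to 2659 and 1256 CPM in these 2 mice and to at most 79.2 CPM in the other 6. Without these nuclei Klf4 was at 335, 176, 152 and 165 CPM in Tsc2 wt/wt, and all 4 values remained above those of Tsc2 mut/mut (log2 fold change -2.12, SE 0.37, edgeR adjusted p = 0.0309). Leaving out any 1 mouse as well gave adjusted p from 0.00316 to 0.359, above 0.05 in 6 of the 8 fits with log2 fold changes from -2.45 to -1.95 over all 8, among them that without Tsc2 mut/mut replicate 4 (0.0605). Of members with under 10% mitochondrial UMIs, 223 in all, Klf4 had 25, 48, 4 and 18 UMIs in Tsc2 wt/wt and 4, 3, 1 and 0 UMIs in Tsc2 mut/mut, too few to enter the test.

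Klf4 belongs to the immediate early genes, which cells switch on rapidly after a stimulus and which microglia are known to induce during enzymatic digestion of tissue, a step of both groups here. A group of 20 such genes was put together after Klf4 had been seen, so its values are a description. All 14 members with enough counts had a negative log2 fold change, with a median of -0.92 beside -0.02 for all genes. An unadjusted p under 0.05 was reached by 12 of the 14, against 4.07% of all genes in this direction, and the mice of both genotypes did not overlap for 7, against 2.67%. Apart from Klf4 none passed the adjusted threshold in the reported fit. With Klf4 included, 5 of 13 passed without Tsc2 wt/wt replicate 2, all lower, beside 19 lower calls among all 2086 genes of that fit. Without replicate 4 it was 3 of 14, all lower, beside 10 lower calls among 2062 genes. With DESeq2 none passed, beside 2 lower calls among 2285 genes, but Klf4 and Fosb had no adjusted p there. Summed over the group, the microglia-like nuclei held 6255, 4732, 6656 and 4624 CPM in Tsc2 wt/wt and 2574, 3968, 2066 and 1536 CPM in Tsc2 mut/mut mice, and every Tsc2 wt/wt value was above every Tsc2 mut/mut value.

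Subunits of the AP-1 factor are described first. Jun, which dimerises with Fos proteins, was at 1288, 962, 1407 and 951 CPM in Tsc2 wt/wt and at 508, 896, 427 and 384 CPM in Tsc2 mut/mut mice, without overlap (log2 fold change -0.93). Without the 4 vascular nuclei Jun was at 869 CPM in Tsc2 wt/wt replicate 2, below Tsc2 mut/mut replicate 2, so the groups overlapped (log2 fold change -0.92). Fosb, a partner of Jun, was at 418, 263, 228 and 200 CPM against 66.7, 128, 98.5 and 165 CPM, without overlap (log2 fold change -1.42, SE 0.32, edgeR adjusted p = 0.131). For Fos itself the groups overlapped, since Tsc2 mut/mut replicate 2 (491 CPM) was the highest of all mice. Among the other factors, Egr1, an early growth response regulator, was at 334, 352, 609 and 455 CPM against 217, 213, 207 and 219 CPM, and Atf3, a stress-induced repressor, at 368, 216, 494 and 221 CPM against 137, 117, 85.4 and 0 CPM. Both separated the genotypes. Klf2, a relative of Klf4 that endothelial cells also express, was at 535, 209, 266 and 82.7 CPM against 29.2, 96.0, 49.3 and 0 CPM, so the groups overlapped at replicate 4 of Tsc2 wt/wt and replicate 2 of Tsc2 mut/mut. It had a log2 fold change of -2.24 with an edgeR adjusted p of 0.136. Without the 4 vascular nuclei Klf2 was at 223, 108, 266 and 82.7 CPM in Tsc2 wt/wt, and its log2 fold change was -1.33 (SE 0.45, edgeR adjusted p = 0.277).

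Other values of the same mice were set beside this group. In the other kept barcodes the same genes summed to between 390 and 592 CPM in Tsc2 wt/wt and between 280 and 906 CPM in Tsc2 mut/mut, and 9 of 17 tested genes were higher and 8 lower, with a median log2 fold change of 0.00. The barcodes with few genes held 175 to 311 CPM. In every mouse the sum was thus higher in the microglia-like nuclei than in these pooled barcodes, and other single cell types were not summed. Among the 223 members under 10% mitochondrial UMIs the group summed to 6344, 5211, 7223 and 4837 CPM in Tsc2 wt/wt and to 2708, 4649, 1523 and 1892 CPM in Tsc2 mut/mut mice, again without overlap, at mitochondrial shares of 3.78% to 7.34% and 6.22% to 7.47%. All 10 genes tested there had a negative log2 fold change (median -0.85), beside 622 of 1220 genes in all, and 5 had an unadjusted p under 0.05, against 4.59% of all genes of that fit in this direction. Without the 4 vascular nuclei the median stayed at -0.92, with 14 of 14 below 0. In the microglia-like nuclei the astrocyte list also separated the genotypes, at 903 to 3805 CPM in Tsc2 wt/wt and 5174 to 8010 CPM in Tsc2 mut/mut mice. Whether other measures of handling moved with the groups was not tested.

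**Figure D3:**
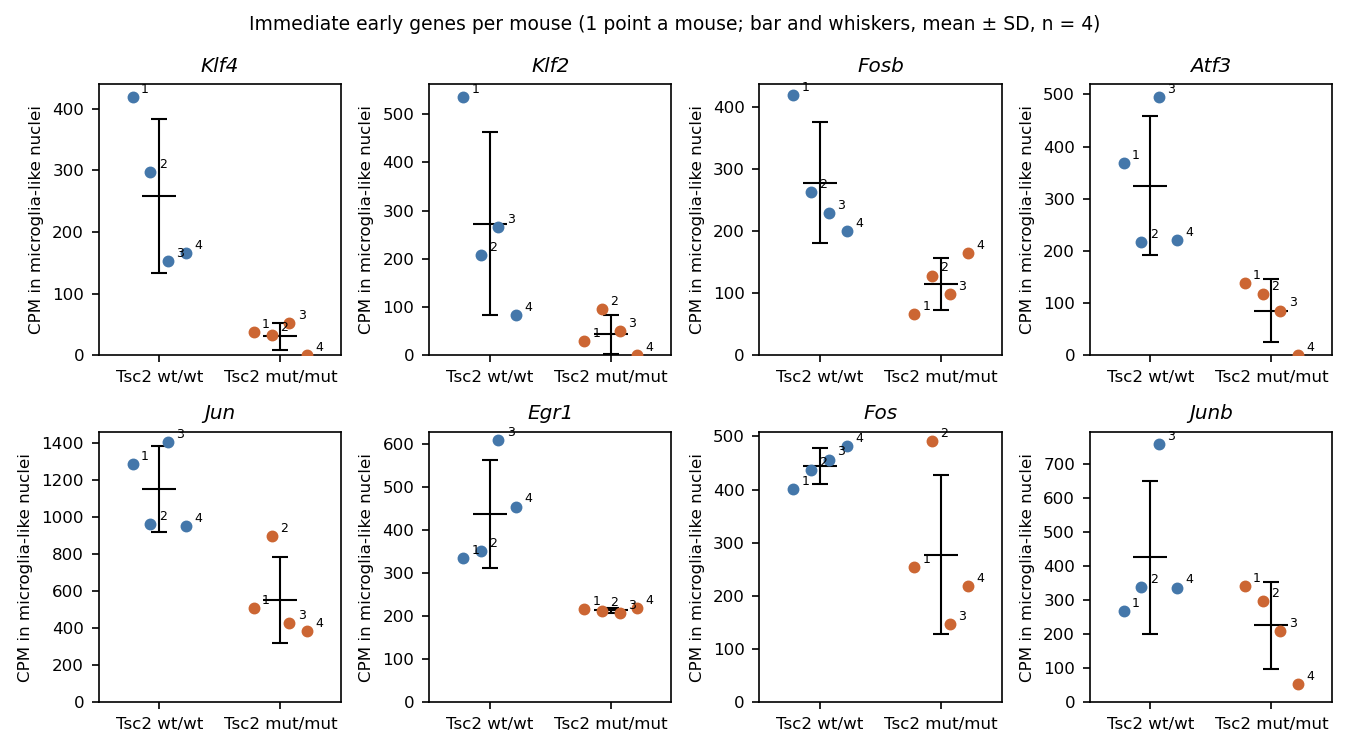
CPM of 8 immediate early genes in microglia-like nuclei, 1 point per mouse with its replicate number, and the mean with SD (n = 4) for each genotype. Klf4, Fosb, Atf3, Jun and Egr1 do not overlap between the genotypes, and Jun lies between 951 and 1407 CPM in Tsc2 wt/wt against 384 to 896 CPM. Without the 4 vascular nuclei, which are included here, Jun overlaps, with Tsc2 wt/wt replicate 2 at 869 CPM.

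The other 9 genes of lowest p did not pass the adjusted threshold, though each passed it in 1 to 6 of the alternative fits. Among those with lower values in Tsc2 mut/mut, Itga6, a laminin receptor subunit, was at 719, 348, 228 and 338 CPM in Tsc2 wt/wt and at 154, 107, 128 and 219 CPM in Tsc2 mut/mut mice (log2 fold change -1.50, SE 0.31, edgeR adjusted p = 0.0894). Nav2, a cytoskeletal neuron navigator protein that is abundant in these nuclei, was at 4683, 3979, 4678 and 3976 CPM against 2483, 2251, 2440 and 3511 CPM (log2 fold change -0.68, SE 0.17, edgeR adjusted p = 0.131). Neither gene overlapped between the groups, and Nav2 was at most 411 CPM in the other kept barcodes of any mouse. Klf7, a Krüppel-like factor, had a log2 fold change of -1.25 without overlap, and Tmx4, a thioredoxin-related membrane protein, one of -1.39 with overlap. Without the 4 vascular nuclei Klf7 overlapped too (log2 fold change -1.13). It was then at 201 CPM in Tsc2 wt/wt replicate 1, below the 219 CPM of Tsc2 mut/mut replicate 4.

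Higher values in Tsc2 mut/mut were found for Neurl1a, Map2, Rps26 and Rps29. Neurl1a, a ubiquitin ligase of neurons, was at 0, 38.6, 0 and 20.7 CPM against 112, 85.3, 128 and 110 CPM, and Map2, a neuronal microtubule protein, at 33.4, 131, 152 and 75.8 CPM against 279, 160, 263 and 329 CPM, with log2 fold changes of 2.16 and 1.37. Neither gene overlapped between the groups. The barcodes with few genes held from 78.1 to 123 CPM of Neurl1a and from 466 to 737 CPM of Map2. Rps26, a protein of the small ribosomal subunit, was at 184, 282, 190 and 158 CPM against 412, 416, 496 and 384 CPM (log2 fold change 1.07, SE 0.26, edgeR adjusted p = 0.131), and Rps29 had a log2 fold change of 0.96, with Tsc2 wt/wt replicate 2 at 1028 CPM and Tsc2 mut/mut replicate 2 at 1024 CPM.

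Ribosomal and mitochondrial transcripts as groups had higher values in Tsc2 mut/mut, though no gene of them passed the adjusted threshold in the reported fit. With DESeq2 4 of 2285 genes were called higher in Tsc2 mut/mut, namely Rps29, Cox8a, mt-Co1 and mt-Co3. The groups were drawn up after the values had been seen and are described without a test. Of 79 ribosomal protein genes 77 had a positive log2 fold change (median 0.66), and 41 had an unadjusted p under 0.05, beside 5.86% of all genes in this direction. All 35 nuclear genes of oxidative phosphorylation (median 0.83, 18 with an unadjusted p under 0.05) and all 13 genes of the mitochondrial genome (median 0.74, 11 with one) were positive too. Ribosomal protein genes summed to 17075, 31168, 20956 and 17346 CPM in Tsc2 wt/wt and to 32360, 29539, 41792 and 34235 CPM in Tsc2 mut/mut mice. The groups overlapped, because Tsc2 wt/wt replicate 2 lay above Tsc2 mut/mut replicate 2.

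The barcodes with few genes held 112130 to 135840 CPM of ribosomal protein genes and 480200 to 498140 CPM of mitochondrial genes, and whether they were free RNA or damaged nuclei was not tested. The same direction was seen outside the microglia-like nuclei. In the other kept barcodes 81 of 81 ribosomal protein genes were positive, with a median of 1.13 and none with an unadjusted p under 0.05. Of all genes of that fit 1.0% reached this in this direction. The 79 ribosomal protein genes tested in the members summed there to 44376, 30296, 26965 and 31261 CPM in Tsc2 wt/wt. In Tsc2 mut/mut they summed to 28868, 40852, 45035 and 98597 CPM, so the groups overlapped, with replicate 4 of Tsc2 mut/mut the highest of all mice. In astrocyte-gated barcodes 77 of 79 were positive (median 0.57) and 55 had a positive value with an unadjusted p under 0.05, against 4.31% of all genes of that fit. In oligodendrocyte-gated barcodes these counts were 78 of 79 (median 0.97) and 54, against 6.1% of all genes. Among members under 10% mitochondrial UMIs the ribosomal median was 0.28, with 47 of 52 genes positive, beside 598 of 1220 genes in all, and 6 had an unadjusted p under 0.05, against 2.54% of all genes in this direction. Tsc2 wt/wt replicate 2 bore on the number of calls, for without it 97 of 2086 genes passed, 78 higher and 19 lower. Among the higher were 29 of 78 ribosomal, 16 of 31 oxidative phosphorylation and 12 of 13 mitochondrial genes tested.

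**Figure D4:**
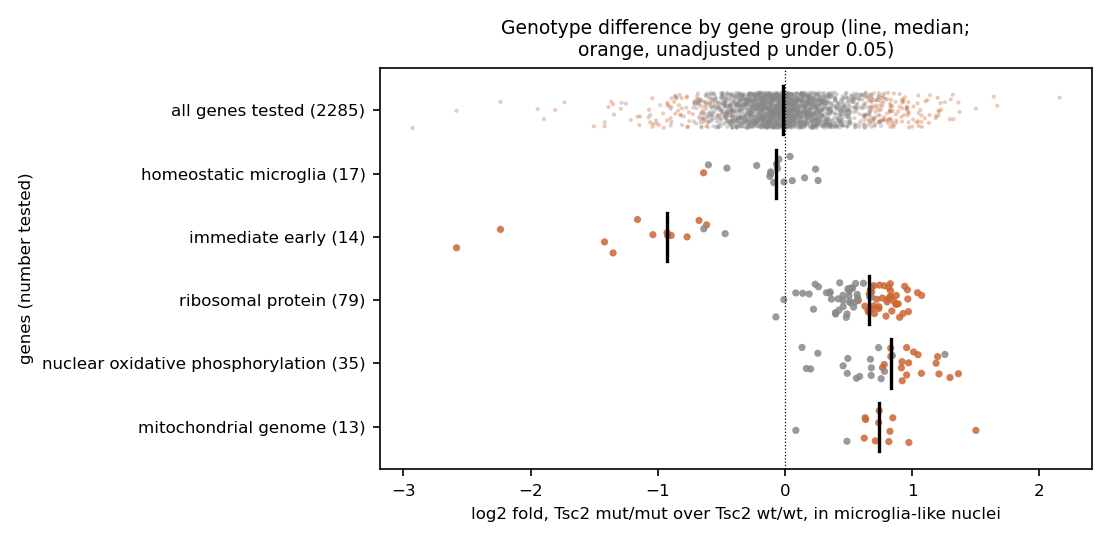
Log2 fold change (Tsc2 mut/mut over Tsc2 wt/wt) in microglia-like nuclei for all tested genes and for the homeostatic, immediate early, ribosomal protein, oxidative phosphorylation and mitochondrial genes, with the number tested beside each name. Each point is a gene, orange for an unadjusted p under 0.05, and each line is the median. The immediate early median lies at -0.92 and the ribosomal median at 0.66, while the homeostatic median, 3 rule genes included, lies at -0.07.

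The TSC and mTOR list bears on the targeted gene itself. Tsc2 was too low to be tested, with 1, 0, 1 and 2 UMIs in Tsc2 wt/wt and 3, 0, 7 and 0 UMIs in Tsc2 mut/mut mice, 14 in all, so a difference was not detectable at this depth and these nuclei do not check the genotype labels. Counts of 3′ ends also do not tell whether an allele was recombined. The median fold of the 22 genes of the list was 1.11, and 10 of the 22 were over 50 CPM. For all genes over 50 CPM, a set without such low genes, the median fold was 1.63. Of that set 28.9% were at least 2-fold higher in the mean and higher in all mice. Of the 22 genes 4 were, though the sets are not alike. Among the 4 were Pik3cd and Pik3cg, the leukocyte catalytic subunits of PI3 kinase, with 51.1-fold and 49.2-fold. Another was Rptor, the mTORC1 scaffold raptor, with 528 ± 142 CPM and 5.31-fold. Between genotypes 8 genes of the list could be tested, 2 had a positive and 6 a negative log2 fold change (median -0.15), and none had an unadjusted p under 0.05. Rptor was at 585, 390, 837 and 551 CPM in Tsc2 wt/wt and at 442, 512, 414 and 494 CPM in Tsc2 mut/mut mice, with overlap (log2 fold change -0.21, SE 0.23, edgeR adjusted p = 0.926).

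For genes of microglial identity no genotype difference passed, and log2 fold changes were mostly small. Of 14 tested homeostatic genes outside the rule 5 had a positive and 9 a negative value (median -0.07), and none had an unadjusted p under 0.05 in edgeR. Siglech was at 585, 699, 1065 and 1103 CPM in Tsc2 wt/wt and at 708, 875, 834 and 1097 CPM in Tsc2 mut/mut mice (log2 fold change 0.04, SE 0.22, edgeR adjusted p = 0.999), and Tmem119 at 100, 243, 304 and 248 CPM against 217, 363, 217 and 274 CPM (log2 fold change 0.24, SE 0.28, edgeR adjusted p = 0.940). The genotypes overlapped for both. P2ry12, as a gene of the rule, is among the values that chose the nuclei, and its log2 fold change of -0.64 (SE 0.22, edgeR adjusted p = 0.264) is given as a description.

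Of 16 tested myeloid transcription factors 13 had a negative log2 fold change (median -0.24), beside 1188 of 2285 genes in all. An unadjusted p under 0.05 was reached by 4 of them, all lower, against 4.07% of all genes in this direction, and these included Fli1, Bach2 and Klf2, of which the last changes without the vascular nuclei as given above. Fli1, an ETS factor of blood and endothelial cells, was at 1355, 1070, 1027 and 1509 CPM in Tsc2 wt/wt and at 908, 896, 808 and 988 CPM in Tsc2 mut/mut mice. The groups did not overlap for Fli1, which had a log2 fold change of -0.45 (SE 0.18, edgeR adjusted p = 0.378). Spi1, at 0.02 (SE 0.28), did not differ beyond the spread between mice.

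In the remaining microglial lists no gene passed either. Medians were -0.12 for 19 tested genes of immune signalling and the cytoskeleton outside the rule, -0.17 for 7 complement and Fc receptor genes, -0.30 for 10 genes of the TGF-beta list and -0.09 for 15 lysosomal genes. In the list of disease-associated microglia 9 genes could be tested, with 2 positive and 7 negative (median -0.09). An unadjusted p under 0.05 was reached by 4 of them, Apoe and Fth1 with positive values (0.97 and 0.78) and B2m and Cd9 with negative values (-1.06 and -0.85), beside 9.93% of all genes tested in either direction. Apoe was at 468, 931, 494 and 503 CPM in Tsc2 wt/wt and at 1154, 864, 1613 and 1042 CPM in Tsc2 mut/mut mice. Tsc2 wt/wt replicate 2 reached into the range of the other group for Apoe, which had a log2 fold change of 0.97 (SE 0.26, edgeR adjusted p = 0.136). The inflammatory list had 3 testable genes with a median of 0.17, and the antigen presentation list 2 with a median of -0.58.

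Interferon response genes, of which 1 could be tested singly, summed to 970, 456, 418 and 317 CPM in Tsc2 wt/wt and to 283, 277, 289 and 274 CPM in Tsc2 mut/mut mice, without overlap. When the 4 vascular nuclei were left out the Tsc2 wt/wt sums were 380, 344, 418 and 317 CPM. The groups then lay closer and still did not overlap, at 317 against 289 CPM. In Tsc2 wt/wt replicate 3 and Tsc2 mut/mut replicate 4, 3 UMIs alone equal 114 and 165 CPM, so their sums rest on few counts. The border macrophage list summed to 2208, 506, 380 and 675 CPM against 404, 2134, 861 and 384 CPM, and the endothelial, mural or fibroblast list to 2659, 1256, 76.1 and 13.8 CPM against 79.2, 42.7, 19.7 and 0 CPM. Vascular transcripts were high in 2 Tsc2 wt/wt mice, and border macrophage transcripts in 1 mouse of each genotype. Without members with border macrophage transcripts 9 of 1645 genes passed, 4 higher and 5 lower, and Klf4 had a log2 fold change of -2.18 (edgeR adjusted p = 0.035). Medians in that fit were -0.78 for 12 immediate early and 0.75 for 75 ribosomal protein genes. Beyond these values and those without the vascular nuclei, the part of such transcripts in the differences between genotypes was not tested.

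The last comparison asked whether the genotype difference in microglia-like nuclei departed from that in the other kept barcodes of the same mice. Of 9182 genes 6 (0.0653%) passed the interaction test of edgeR at an adjusted p of 0.05, namely Sorbs2, Samd12, Hmcn1, Id1 and Sh3rf1 with a more negative and Dnah12 with a more positive value in the microglia-like nuclei. They were few counts, with 1 genotype at 0 in every mouse for Hmcn1, Id1 and Dnah12. Sorbs2, an adaptor of the actin cytoskeleton, was at 284, 205, 152 and 82.7 CPM in Tsc2 wt/wt and at 20.8, 10.7, 26.3 and 0 CPM in Tsc2 mut/mut microglia-like nuclei. Without the 4 vascular nuclei its Tsc2 wt/wt values were 44.7, 17.2, 152 and 82.7 CPM, which overlapped those of Tsc2 mut/mut. None of the 6 passed once the 4 vascular nuclei were left out, where the count of calls was 0 (371 genes with an unadjusted p under 0.05). For Dnah12 this changed no count. The count was also 0 in other alternatives given below, such as at least 3 or at least 6 microglial UMIs. What the loss of calls was due to was not tested.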

How the data were processed

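Nuclei from the V-SVZ were captured with 10x Genomics 3′ chemistry. The authors aligned reads with Cell Ranger 7.0.1 to GRCm38, set to 60000 barcodes per library, and used Seurat 4. The deposited values are raw UMI counts per gene and barcode, not normalized. Libraries had 11182335 to 36773832 UMIs. Comparisons made by the authors were not used, and no column belonged to another sample.

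The members and gene lists were chosen with earlier results of these data known, and the immediate early, ribosomal and mitochondrial groups after the values of these fits. No doublet caller was run. Sums of the members' UMIs, 1 per mouse, entered edgeR 4.0.16 in R 4.3.3 (TMM, filterByExpr on genotype, robust quasi-likelihood test, Benjamini-Hochberg adjustment, threshold 0.05), without covariates. The interaction used 16 sums with the mouse as a block. Values with 1 number per mouse had exact permutation tests, two-sided (scipy 1.17.1), and shares given 95% Wilson intervals. Intervals and limits for a count of 0 cover counting error only. CPM are relative to all UMIs of the members of a mouse and not scaled by gene length, so the most abundant gene of a list is the one with the highest mean CPM and not per length. Folds between compartments were ratios of mean CPM over mice, with 1 CPM added to both. Sub-groups were found with scanpy 1.11.5 and igraph 0.11.9 in Python 3.11.15 (1000 variable genes, 15 components, 15 neighbours, resolution 0.5). Coordinates came from GENCODE M21 and promoters from RefSeq on GRCm38.p6. The edgeR fit between genotypes was tested on simulated data. It recovered 45 of 100 2-fold and 99 of 100 4-fold changes, with 7 false calls.

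Named genes were the 25 with the highest fold over the other kept barcodes among genes of at least 50 CPM that were higher in all 8 mice, the 8 rule genes, the 10 genes of lowest p between genotypes, and Tsc2. Other genes are examples of the lists, chosen after their values were seen. Alternatives were other limits of the rule, DESeq2 1.42.0, library size scaling, no filter, a replicate block, each mouse left out and members with border macrophage or vascular transcripts left out (the latter added after seeing the data). Some genes that meet these rules are not reported here.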

Additional observations from a re-analysis of the deposited data

Results flagged for a closer look

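Among 72 groups of 4 mice that were checked for a single mouse far from the others, 2 were found, and chance alone flags about 1 in 20 groups. Both concerned Tsc2 wt/wt replicate 1, with 31 microglia-like nuclei. Its summed CPM of the antigen presentation list was 1539, against 730, 837 and 765 CPM in the other 3 Tsc2 wt/wt mice. Without the vascular nuclei these sums were 1206, 680, 837 and 765 CPM, and the gap to the next mouse fell from 0.868 to 0.702 of the range, at which this mouse no longer stands apart by the same limit. Its summed CPM of the border-associated macrophage list was 2208, against 506, 380 and 675 CPM, and without the vascular nuclei 2814 CPM, with a gap of 0.879 of the range.

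The genotype difference in microglia-like nuclei departed from that in the other kept barcodes for 6 genes in the interaction test of edgeR, each with an adjusted p of 0.0446. In log2 units the interaction was -3.13 for Sorbs2, -3.55 for Sh3rf1, -4.02 for Samd12, -8.35 for Hmcn1, -8.36 for Id1 and 8.15 for Dnah12. The last 3 are fitted against a group without any UMI and are not bounds. Hmcn1, an extracellular matrix protein, was at 66.9, 166, 38 and 0 CPM in Tsc2 wt/wt and at 0 in all Tsc2 mut/mut mice, and Id1, an inhibitor of helix-loop-helix factors, at 66.9, 88.8, 0 and 0 CPM against 0 in all 4. Dnah12, a dynein of motile cilia, was at 0 in all Tsc2 wt/wt mice and at 79.2, 64.0, 29.6 and 0 CPM in Tsc2 mut/mut mice, whose ependymal list also summed to 387, 277, 128 and 0 CPM, against 33.4, 11.6, 0 and 6.89 CPM in Tsc2 wt/wt. Samd12 was at 151, 92.7, 38 and 117 CPM against 0, 0, 16.4 and 0 CPM, and Sh3rf1, a scaffold of JNK signalling, at 117, 112, 0 and 62.0 CPM against 12.5, 0, 6.57 and 0 CPM. Without the 4 vascular nuclei the Tsc2 wt/wt values were 0, 0, 38 and 117 CPM for Samd12, 22.3, 38.7, 0 and 62.0 CPM for Sh3rf1, 22.3, 0, 38 and 0 CPM for Hmcn1 and 0 in all 4 mice for Id1. None of the 6 passed without the 4 vascular nuclei, nor in the fit without members with transcripts of other cell types. The vascular nuclei, all of Tsc2 wt/wt mice, held no Dnah12 UMI, so leaving them out does not bear on ependymal transcripts. Beyond these fits the part of vascular and ependymal transcripts in these values was not tested.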

How the results depend on the processing

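Klf4 passed the edgeR threshold in each of the 21 alternatives that changed 1 choice and gave it an adjusted p, with log2 fold changes from -2.92 to -2.12 and adjusted p from 7.51e-06 to 0.0401. DESeq2 gave no adjusted p for it. Under 10% mitochondrial UMIs Klf4 did not enter the test, and the 1 call there was Fhit, higher in Tsc2 mut/mut. With the vascular nuclei left out and also 1 mouse left out or the block added, Klf4 did not pass in 7 of 9 fits, at log2 fold changes from -2.45 to -1.95. The other 9 genes of lowest p kept their direction in every alternative that gave a value and passed in some, Itga6 in 6, Fosb and Rps29 in 4, Rps26 in 3, Neurl1a, Map2, Tmx4 and Nav2 in 2 and Klf7 in 1. With DESeq2 these were Itga6 and Nav2 (adjusted p = 0.0378 each) and Rps29 (0.0429). DESeq2 also called mt-Co1, mt-Co3 and Cox8a, higher in Tsc2 mut/mut. The number of genes past the threshold, 1 in the reported fit, was 2 with at least 3 microglial UMIs, 9 without members with border macrophage transcripts, 2 with library size scaling, 134 without a filter on low counts, 6 with DESeq2 and from 2 to 97 when 1 mouse was left out (97 without Tsc2 wt/wt replicate 2, and 6 and 10 without replicates 3 and 4). In the interaction test, with 6 calls as reported, it was 14 without Apbb1ip in the rule and 0 with at least 3 or at least 6 microglial UMIs, with at least 200 or 500 genes, under 10% mitochondrial UMIs, and without members with other cell type, border macrophage or vascular transcripts, and from 0 to 40 when 1 mouse was left out (40 without Tsc2 wt/wt replicate 2, 31 without replicate 4). The cause of these shifts was not tested.

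The genotypes share replicate numbers, but same-numbered mice did not deviate together (correlations -0.03, -0.12, -0.13 and -0.10, none best with its own number). With the replicate number as a block 3 genes passed, Klf4 (adjusted p = 0.0185), Bsg and Klf2, and the block without the vascular nuclei gave Klf4 an adjusted p of 0.206.

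The difference in share (-0.257 percentage points) changed sign to 0.0549 with at least 3 microglial UMIs, 0.873 with at least 200 genes, 0.284 without border macrophage transcripts and 0.0158 over all barcodes with at least 300 genes, was -1.61 with at least 6 UMIs and -5.76 under 10% mitochondrial UMIs (exact permutation p = 0.2), and ran from -2.29 to 2.61 when 1 mouse was left out. That in median UMIs (75.5) was -22.5 with at least 3 UMIs and -46.4 without border macrophage transcripts (-56.8 to 160 with 1 mouse left out). It was 293 with at least 6 UMIs and 756 under 10% mitochondrial UMIs (exact permutation p = 0.0857). The difference in median genes (-0.875) was 151 with at least 6 UMIs, 41.6 and 61 with at least 200 and 500 genes, 308 under 10% mitochondrial UMIs, 54.2 without Apbb1ip and 1.88 without vascular transcripts (-67.6 to 44.1). The mitochondrial difference (5.07) reached the smallest possible exact p of 0.0286 with at least 3 UMIs (4.99) and without border macrophage transcripts (5.93), unadjusted (4.23 to 6.40 with 1 mouse left out). It was 1.63 under 10% mitochondrial UMIs (exact permutation p = 0.114), a limit on that share itself. The border macrophage difference (-3.49) was 9.24 under 10% mitochondrial UMIs (-6.09 to -1.05). Genes at least 8-fold higher in the profile, 353 without the rule genes, numbered 254 to 382. Depth limits most what the 17 and 10 nuclei of Tsc2 wt/wt replicate 3 and Tsc2 mut/mut replicate 4 can show.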
